A study of Mus musculus with 141 samples.

Results

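The 10 genes described here encode sugar transporters and their close relatives: 6 facilitative carriers of the SLC2 (GLUT) family, *Slc2a1*, *Slc2a2*, *Slc2a3*, *Slc2a4*, *Slc2a5* and *Slc2a9*, and 4 sodium-coupled carriers of the SLC5 family, *Slc5a1*, *Slc5a2*, *Slc5a10* and *Slc5a12*. They were taken by gene symbol from the 24423 genes listed in every library. The rule itself uses no measured value, but the members were chosen with earlier results of these data known. RNA sequencing was performed on liver, lung and kidney from 1 adult male mouse, 8 to 12 weeks old, of each of 47 Collaborative Cross (CC) strains, which are recombinant inbred mouse strains descended from a shared set of founder strains. All mice received the same NTP diet and spent 6 hours a day on weekdays, over 2 weeks, in chambers supplied with clear air, so that no treatment separates the groups and every comparison is between organs or between strains. With 1 mouse per strain, a difference between strains cannot be told apart from a difference between individual mice. No sequencing batch is given in the labels, and its part in any result was not tested.

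The SLC2 carriers let hexoses move down their concentration gradient, whereas the SLC5 carriers use the sodium gradient to pull sugar or other small solutes into the cell against theirs. In the liver, GLUT2 (*Slc2a2*) lets glucose pass in both directions, as storage after a meal and release during fasting require. In the kidney, filtered glucose is taken up from the urine by SGLT2 (*Slc5a2*) in the early proximal tubule and by SGLT1 (*Slc5a1*) further along it, and leaves the cell toward the blood through GLUT2 and GLUT1 (*Slc2a1*). GLUT3 (*Slc2a3*) has a high affinity for glucose and is abundant in neurons, platelets and white blood cells. GLUT4 (*Slc2a4*) is the insulin-responsive carrier of muscle and fat, and GLUT5 (*Slc2a5*) carries fructose. The proteins of *Slc2a9* and *Slc5a12* are best known for carrying urate and lactate, respectively, and *Slc5a10* encodes SGLT5, a kidney carrier of mannose and fructose.

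Liver libraries held 1738046 to 42158454 counts, lung libraries 2829104 to 17585682 and kidney libraries 3046695 to 15028553. Markers matched the labelled organ in all libraries: the summed level of 7 hepatocyte genes was 37491 to 159670 TPM (the transcripts-per-million unit, scaled to transcript length) in liver, that of 6 lung epithelial genes was 18634 to 162160 TPM in lung, and that of 9 early proximal tubule genes was 3239 to 10413 TPM in kidney. Some libraries also held more RNA from other tissues than the rest. The CC010 lung had 2690 TPM of hepatocyte genes against a lung median of 187 TPM, and the CC035 liver had 155 TPM of early proximal tubule genes against a liver median of 18.8 TPM. The CC031 liver had 954 TPM of skeletal muscle genes against a liver median of 4.90 TPM. These libraries recur below beside the values they touch, and leaving out the 3 strains left the number of transporters called in each organ comparison at 5, 8 and 9.

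Sequence upstream of the start site was held for 6 of the 10 genes, and 4 of these windows are shown because their genes have contrasting patterns over the organs. *Slc2a1* is transcribed in all 3 organs, *Slc2a2* in liver and kidney with little in lung, *Slc2a5* mostly in kidney and less in liver, and *Slc5a1* mostly in kidney with some in lung. Each window is the 250 bases before a RefSeq transcription start on GRCm38.p6, a later build than the one used for alignment, read 5′ to 3′ along the gene. Capitals mark the GC box GGGCGG on either strand. The windows lie at chr4:119108495-119108744 on the plus strand for *Slc2a1*, chr3:28697653-28697902 on the plus strand for *Slc2a2*, chr4:150119094-150119343 on the plus strand for *Slc2a5* and chr5:33103969-33104218 on the plus strand for *Slc5a1*.
Slc2a1: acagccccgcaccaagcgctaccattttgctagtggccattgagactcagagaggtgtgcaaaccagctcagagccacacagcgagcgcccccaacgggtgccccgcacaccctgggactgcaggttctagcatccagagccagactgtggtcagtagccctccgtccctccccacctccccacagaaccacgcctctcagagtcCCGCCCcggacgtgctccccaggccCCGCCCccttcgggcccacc
Slc2a2: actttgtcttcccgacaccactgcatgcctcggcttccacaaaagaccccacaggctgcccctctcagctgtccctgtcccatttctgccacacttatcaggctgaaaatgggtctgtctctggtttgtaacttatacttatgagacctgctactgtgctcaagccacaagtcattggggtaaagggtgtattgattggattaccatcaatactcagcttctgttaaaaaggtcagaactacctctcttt
Slc2a5: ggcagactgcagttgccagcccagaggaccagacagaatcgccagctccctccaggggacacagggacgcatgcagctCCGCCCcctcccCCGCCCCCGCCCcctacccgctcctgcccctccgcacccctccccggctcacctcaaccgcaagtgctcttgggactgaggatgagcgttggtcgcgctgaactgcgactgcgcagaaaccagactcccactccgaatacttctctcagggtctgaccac
Slc5a1: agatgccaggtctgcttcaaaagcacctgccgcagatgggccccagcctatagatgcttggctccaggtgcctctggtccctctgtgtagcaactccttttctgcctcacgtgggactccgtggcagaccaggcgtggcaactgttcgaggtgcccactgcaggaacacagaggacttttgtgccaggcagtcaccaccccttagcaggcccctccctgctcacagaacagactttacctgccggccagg
*Slc2a1* held 13 CG dinucleotides and 2 GC boxes in 66.4% G and C bases, and *Slc2a5* held 15 CG dinucleotides and 3 GC boxes, also in 66.4%. *Slc2a2* held 2 CG dinucleotides and no GC box, and *Slc5a1* held 6 CG dinucleotides and no GC box. The median over the 32851 windows of all genes was 6 CG dinucleotides, and 32.7% of them contained a GC box. A match describes the letters in the window and not a bound site, and the absence of one says nothing about the factor.

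The 3 organs used different members of the group. The plot of TPM by organ shows a single dominant carrier in liver, a low and mixed set in lung and a high and mixed set in kidney. Without *Slc5a12*, whose protein is best known for lactate rather than sugar, the members summed to 85.5, 403 and 853 TPM (lowest, median and highest strain) in liver, of which *Slc2a2* alone was a median of 95.8% and the most abundant in 47 of 47 strains. In lung the sum was 12.0, 55.3 and 87.9 TPM, with *Slc2a1* most abundant in 32 of 47 strains at a median of 35.4% of the sum. In kidney it was 403, 891 and 1478 TPM, with *Slc5a2* most abundant in 40 of 47 strains at a median of 35.0%. The ranges in liver and kidney overlapped, and the lung range lay below the kidney range.

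**Figure D1:**
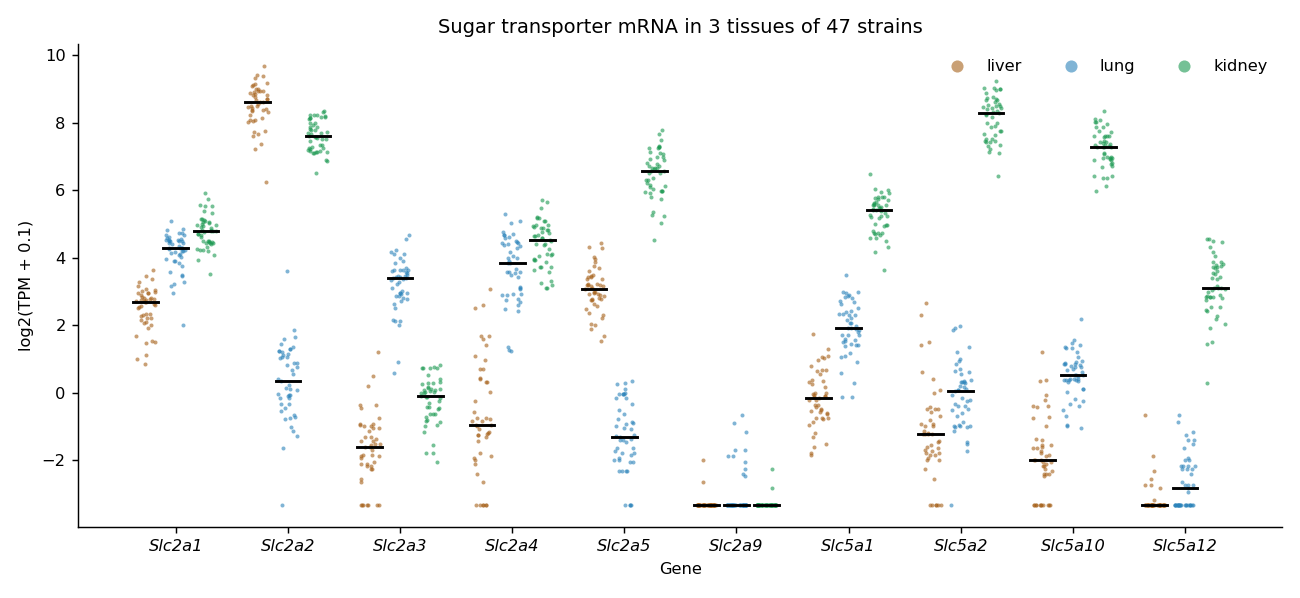
Levels of the 10 transporters on the vertical axis, as log2(TPM + 0.1), with genes along the horizontal axis, each point 1 library (liver brown, lung blue, kidney green) and a bar at the median of 47 strains. *Slc2a2* stands above all other members in liver at a median of 389 TPM, while in kidney *Slc5a2*, *Slc2a2*, *Slc5a10* and *Slc2a5* lie between medians of 95.4 and 315 TPM.

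Being scaled to transcript length, TPM allows levels to be ordered between genes within a mouse. In kidney the order by median was *Slc5a2*, *Slc2a2*, *Slc5a10*, *Slc2a5*, *Slc5a1*, *Slc2a1*, *Slc2a4*, *Slc5a12*, *Slc2a3* and *Slc2a9*, where the levels of *Slc5a12* and *Slc2a9* may be understated as described below. The first of each neighbouring pair was the higher in 36 to 47 of 47 strains, with the least separation for *Slc2a2* over *Slc5a10* (36 strains) and *Slc2a1* over *Slc2a4* (37 strains). All neighbouring ranges overlapped apart from those of *Slc2a3* and *Slc2a9*. In lung the order began *Slc2a1*, *Slc2a4*, *Slc2a3* and *Slc5a1*. There *Slc2a1* exceeded *Slc2a4* in 33 of 47 strains and *Slc2a4* exceeded *Slc2a3* in 32, whereas *Slc2a3* exceeded *Slc5a1* in 46. The next lung neighbours, *Slc5a10* and *Slc2a2*, were not separated, the former being higher in 24 strains and the latter in 23. In liver *Slc2a2* exceeded *Slc2a5* in 47 strains and *Slc2a5* exceeded *Slc2a1* in 38, and the members below *Slc5a1* were near the limit of detection.

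Differences between organs were tested with limma-voom on counts-per-million (CPM) values scaled with TMM, a trimmed-mean method that adjusts library totals for RNA composition, with the strain as a block because each strain gave all 3 organs from 1 mouse. A gene was called where the false discovery rate (FDR) was at most 0.1 and the absolute log2 fold change at least 1. Of the 12127 genes tested, 9 were transporters, since *Slc2a9* did not exceed 1 CPM in at least 30% of libraries. Between liver and lung, 2 of the 9 were higher in liver and 3 in lung, where 23.9% and 31.0% of all tested genes were called in these directions. Between liver and kidney, 1 was higher in liver and 7 in kidney, against 15.6% and 20.8% of all genes. Between lung and kidney, 1 was higher in lung and 8 in kidney, against 25.5% and 20.6% of all genes. The shares of members called higher in kidney were several times those of all genes, while those between liver and lung were near the background. The 47 libraries of 1 organ are enough to meet the filter of 30%, and a gene that passes through 1 organ alone is selected for being high there. *Slc5a12* had at most 3 counts in all 47 livers. *Slc5a2* and *Slc5a10* averaged 1.15 and 0.50 CPM in liver and 0.57 and 0.74 CPM in lung. For these 3 the kidney calls follow largely from the filter, so the excess over all genes is a description only. The median log2 difference of the members was -0.23 for liver against lung, -4.01 for liver against kidney and -7.09 for lung against kidney, where the medians over all tested genes were -0.06, -0.003 and 0.04. The last of the members' medians is the fitted value of *Slc5a12*, which had at most 3 counts in 41 of 47 lungs. For a bulk sample, fewer cells of a type and less RNA per cell cannot be told apart in any of these differences.

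**Figure D2:**
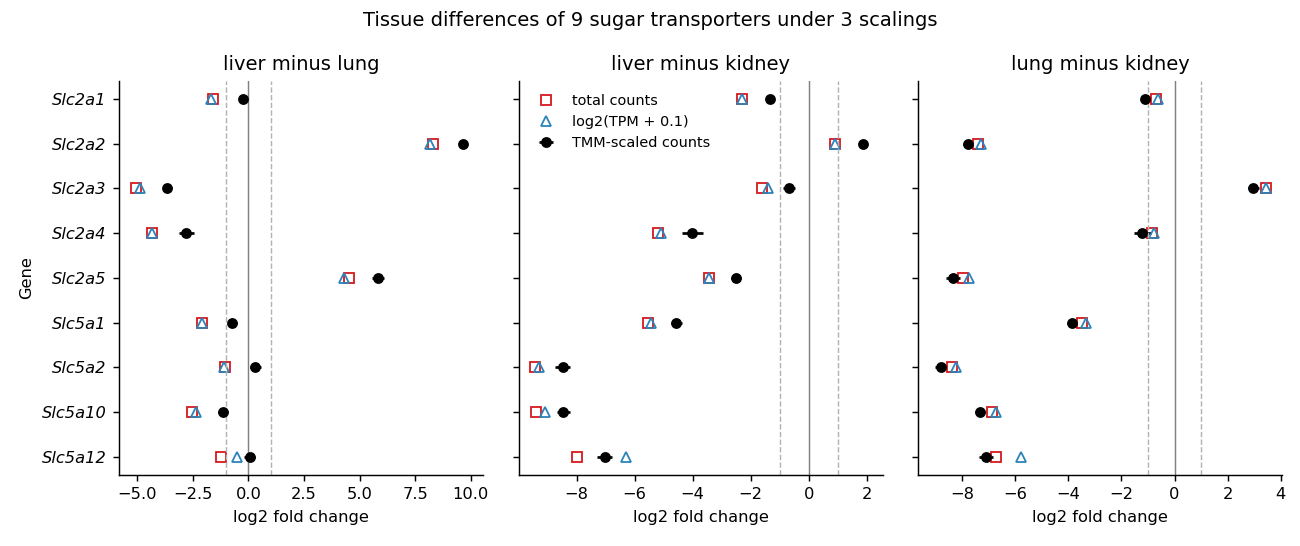
Log2 fold change of the 9 tested transporters (rows) in the 3 organ comparisons (panels), with black points for the TMM-scaled fit and its 95% confidence interval, red squares for library totals, blue triangles for log2(TPM + 0.1) and dashed lines at a log2 fold change of 1 in either direction. In both comparisons with kidney most members lie on the kidney side, the exceptions being *Slc2a2* against liver and *Slc2a3* against lung.

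The scaling between organs matters for the smaller differences. Median TMM factors were 0.643 for liver, 1.94 for lung and 1.32 for kidney, and scaling to library totals alone moved the median of all genes by -1.38, -0.95 and 0.43 on the log2 scale for liver against lung, liver against kidney and lung against kidney. TPM moved it by similar amounts, and the size factors of DESeq2 by -0.24, -0.10 and 0.14. The changes given below are relative to the TMM scale. Fitted values of *Slc5a2*, *Slc5a10* and *Slc5a12* in liver and of *Slc2a5* and *Slc5a12* in lung rest on libraries near the floor of 3 counts. Those of *Slc2a2*, *Slc5a2* and *Slc5a10* in lung and of *Slc2a3* in kidney rest on medians of 5 to 9 counts. Under library totals, 4 more members passed the threshold toward lung against liver: *Slc2a1* (-1.57) and *Slc5a1* (-2.08) in the direction they had on the TMM scale, and *Slc5a2* (-1.05) and *Slc5a12* (-1.25) with their direction reversed. *Slc2a3* passed toward kidney against liver (-1.63). *Slc2a2* then exceeded kidney in liver by 0.92 in place of 1.86, and the lung against kidney differences of *Slc2a1* and *Slc2a4* shrank to -0.72 and -0.85, these 3 being under the fold threshold with their direction kept. All 3 were also under it by TPM. The lung against kidney difference of *Slc2a1* was just under it with DESeq2 (-0.99) and with its size factors (-0.96) as well.

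*Slc2a2* encodes GLUT2 and lies at chr3:28596825-28627278 on the plus strand (build NCBIM37). Its level was 76.0, 389 and 822 TPM in liver (lowest, median and highest strain), 90.4, 193 and 325 TPM in kidney, and 0, 1.16 and 12.2 TPM in lung. The lung range lay below both others, while liver and kidney overlapped on the TPM scale, where liver was higher in 42 of 47 strains. On the TMM scale the ranges of all 3 organs were apart. *Slc2a2* was 798-fold higher in liver than in lung (log2 difference 9.64 ± 0.09 SE, FDR-adjusted p = 1e-98) and 219-fold higher in kidney than in lung (log2 difference -7.78 ± 0.09 for lung against kidney, adjusted p = 3e-90). Both folds rest on few lung reads, a median of 9 counts with at most 3 in 7 of 47 lungs. Liver exceeded kidney 3.64-fold (1.86 ± 0.06, adjusted p = 3.5e-49). The highest lung value belonged to CC010, the library with 2690 TPM of hepatocyte genes, and the next was 3.50 TPM. Without the 3 strains named above the liver to lung difference was 9.68 on the log2 scale.

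*Slc2a1*, the widely expressed carrier of basal glucose uptake (chr4:118781316-118809935, plus strand), was the only member over 1 TPM in every library of the 3 organs. Its level was 1.72, 6.28 and 12.4 TPM in liver, 3.94, 19.4 and 33.6 TPM in lung, and 11.4, 27.7 and 60.3 TPM in kidney. All 3 ranges overlapped. Kidney was 2.505-fold above liver (log2 difference -1.32 ± 0.07 for liver against kidney, adjusted p = 1.7e-34) and was the higher in 47 of 47 strains. Kidney was 2.14-fold above lung (-1.10 ± 0.07, adjusted p = 7.4e-29), also in 47 strains on the TMM scale but in 39 strains by TPM. The difference between liver and lung was -0.23 ± 0.07 and did not reach the fold threshold. Within the kidney, *Slc2a2* exceeded *Slc2a1* by a median TPM ratio of 7.44 (range 3.01 to 13.4), and within the liver by 66.0 (range 18.0 to 175).

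*Slc2a3* (chr6:122677827-122751658, minus strand) was the one member highest in lung. It measured 1.39, 10.5 and 25.4 TPM in lung, 0.14, 0.84 and 1.65 TPM in kidney, and 0, 0.23 and 2.19 TPM in liver, where 20 of 47 libraries had at most 3 counts. Lung exceeded the other organs in 47 of 47 strains. Lung was 7.82-fold above kidney (log2 difference 2.97 ± 0.11, adjusted p = 1.3e-47) and 12.5-fold above liver (-3.64 ± 0.11 for liver against lung, adjusted p = 2.8e-54). Kidney reads were few as well, a median of 9 counts with at most 3 in 8 of 47 kidneys. *Slc2a1* still exceeded *Slc2a3* in the lung of 46 of 47 strains, by a median TPM ratio of 2.08.

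*Slc2a4* (chr11:69756045-69761690, minus strand) varied widely from strain to strain. It measured 8.48, 23.1 and 51.7 TPM in kidney, 2.28, 14.2 and 38.8 TPM in lung, and 0, 0.42 and 8.25 TPM in liver, where 21 of 47 libraries had at most 3 counts. Kidney and lung overlapped widely, and liver and kidney overlapped on the TMM scale but not by TPM. Kidney was 16.1-fold above liver (log2 difference -4.01 ± 0.18 for liver against kidney, adjusted p = 9e-40) and 2.33-fold above lung (-1.22 ± 0.16, adjusted p = 4.8e-11). Lung exceeded liver in 44 of 47 strains (-2.79 ± 0.18 for liver against lung, adjusted p = 2.8e-28). The highest livers were CC031 at 8.25 TPM, CC006 at 5.91 TPM and CC037 at 5.64 TPM. Of these, CC031 had the highest skeletal muscle sum of all livers and CC006 the highest adipocyte sum, 133 TPM against a median of 0.77 TPM. The CC037 liver had 279 TPM of skeletal muscle genes against a median of 4.90 TPM.

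*Slc2a5*, the fructose carrier (chr4:149493392-149518278, plus strand), measured 23.04, 95.4 and 219 TPM in kidney, 2.79, 8.29 and 21.7 TPM in liver, and 0, 0.30 and 1.16 TPM in lung, where 29 of 47 libraries had at most 3 counts. The 3 ranges were apart by TPM, but on the TMM scale liver and kidney overlapped, with the highest liver at 34.4 CPM and the lowest kidney at 24.9 CPM. Kidney was 5.69-fold above liver and the higher in 47 of 47 strains (log2 difference -2.51 ± 0.09 for liver against kidney, adjusted p = 4.9e-48). Lung was below liver and kidney in every strain, and both differences were called (adjusted p = 4.9e-65 and 2.2e-78). No fold is given against lung, because the median library there had 3 counts and a fitted fold at that level depends on the prior count.

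*Slc2a9* (chr5:38740512-38894382, minus strand) was barely counted. All 47 livers together had 3 counts and all 47 kidneys 2, and the 47 lungs had 27 counts, of which at most 8 came from 1 library. It was not tested. The files name 4 transcripts for it, and only uniquely aligned reads were counted. Over all genes, the 6112 with more than 1 transcript had a median of their mean count of 2.84, against 21.6 for the 18311 with 1 transcript, and the part of this in the *Slc2a9* level was not tested.

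The sodium-coupled members were highest in kidney among the 3 organs sampled. *Slc5a2* (SGLT2, chr7:135409171-135415944, plus strand) measured 85.6, 315 and 603 TPM in kidney, 0, 0.33 and 6.17 TPM in liver and 0, 0.93 and 3.84 TPM in lung. *Slc5a10* (SGLT5, chr11:61486283-61534328, minus strand) measured 63.1, 157 and 322 TPM in kidney, 0, 0.15 and 2.21 TPM in liver and 0.38, 1.34 and 4.46 TPM in lung. For both genes every kidney lay above every liver and lung. Kidney was 443-fold above lung for *Slc5a2* (log2 difference -8.79 ± 0.12 for lung against kidney, adjusted p = 5.4e-85) and 161-fold above lung for *Slc5a10* (-7.33 ± 0.10, adjusted p = 4e-86). These folds rest on few lung reads, with medians of 5 and 9 counts. At most 3 counts were found in 14 of 47 lungs for *Slc5a2* and in 3 for *Slc5a10*. Both genes were also called toward kidney against liver (adjusted p = 1.5e-80 and 5.7e-85), and these calls held without CC010, CC031 and CC035. The liver values rest on few reads, with at most 3 counts in 29 of 47 livers for *Slc5a2* and in 41 for *Slc5a10*, so no fold is given against liver. The same 3 livers, CC035, CC036 and CC033, were the highest for both genes, and CC035 and CC036 also had the highest early proximal tubule sums of all livers, 155 and 62.5 TPM. The CC035 liver had 39 counts of *Slc5a2* and 14 of *Slc5a10*. The CC036 liver was the shallowest of all libraries at 1738046 counts, so its rank rests on few reads. Between liver and lung, *Slc5a10* was called toward lung (adjusted p = 1.5e-17, in 36 of 47 strains), and *Slc5a2* differed by 0.31 ± 0.12, which did not pass the fold threshold and turned to -1.05 under library totals.

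*Slc5a1* (SGLT1, chr5:33446868-33505521, plus strand) was less restricted. It measured 12.4, 42.2 and 89.0 TPM in kidney, 0.81, 3.69 and 11.1 TPM in lung and 0.18, 0.79 and 3.25 TPM in liver, so that the kidney range lay above both others. Kidney was 23.8-fold above liver (log2 difference -4.57 ± 0.10, adjusted p = 1.4e-67) and 14.5-fold above lung (-3.85 ± 0.09, adjusted p = 2e-63). Between liver and lung the difference was -0.72 ± 0.10, under the fold threshold on the TMM scale. *Slc5a12* (SMCT2, a carrier of lactate and other monocarboxylates, chr2:110437455-110487936, plus strand) measured 1.11, 8.46 and 23.6 TPM in kidney. It had 8477 counts over the 47 kidneys, 71 over the 47 lungs and 9 over the 47 livers. Both comparisons with kidney were called (adjusted p = 9.4e-71 against liver and 8.8e-72 against lung), and no fold is given because all livers and 41 of 47 lungs had at most 3 counts. The files name 2 transcripts for *Slc5a12*, so the limit given for *Slc2a9* applies to its level and to its place in the order as well.

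The balance between the sodium-coupled glucose carriers had the same direction in all kidneys. *Slc5a2* exceeded *Slc5a1* in 47 of 47 strains, with a TPM ratio of 3.25 in CC033, a median of 7.56 and a ratio of 19.3 in CC068. *Slc5a2* exceeded *Slc2a2*, which carries glucose onward to the blood, in 41 of 47 strains at a median ratio of 1.45 (range 0.724 to 2.41). For the pair that carries fructose, *Slc5a10* exceeded *Slc2a5* in 42 of 47 strains at a median ratio of 1.65 (range 0.682 to 4.23). Ratios within a library do not depend on the scaling between libraries.

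Other genes of the same pathways were taken from 6 lists, whose counts are to be read against the shares of all tested genes given above (23.9% and 31.0% for liver against lung, 15.6% and 20.8% for liver against kidney, and 25.5% and 20.6% for lung against kidney). The limit given with those shares, for genes that can pass the filter through 1 organ alone, applies to these counts too. Of 14 other SLC2 and SLC5 carriers, 8 were tested, and 7 were higher in kidney than in liver and 0 higher in liver, while 4 were higher in kidney than in lung and 1 in lung. *Slc5a8*, a carrier of lactate and other monocarboxylates, reached 517 ± 130 CPM (SD, n = 47) in kidney and differed by -9.09 ± 0.17 from liver and by -8.22 ± 0.14 from lung on the log2 scale (adjusted p = 7.6e-73 and 1.4e-75). *Slc5a11*, a myo-inositol carrier, differed by -6.92 from liver and -7.80 from lung, and *Slc5a9*, a mannose and glucose carrier, by -6.73 and -3.90. Between liver and lung, 4 carriers were higher in lung, led by *Slc2a12* (-4.30) and *Slc2a13* (-3.23), and 1 in liver, *Slc2a8* (1.08), whose direction reversed under library totals (-0.25) and TPM. The median log2 difference of the list was -1.85, -4.04 and -1.79 for liver against lung, liver against kidney and lung against kidney.

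Of 7 genes of fructose and polyol handling, 6 were tested: 4 were higher in liver than in lung, 6 were higher in kidney than in lung, and 0 were called between liver and kidney, although all 6 passed the FDR threshold there. This last count was 2 toward kidney under library totals or TPM and 1 with DESeq2. *Khk*, which phosphorylates fructose, differed by 5.60 for liver against lung and -5.18 for lung against kidney, and *Tkfc* by 5.80 and -5.04. *Slc2a5* itself was 5.69-fold higher in kidney than in liver. Of 14 genes of glucose phosphorylation and release, 10 were tested. The number called was 4 toward liver and 4 toward lung, 1 toward liver and 4 toward kidney (7 under library totals), and 1 toward lung and 5 toward kidney (3 under library totals). *Gckr*, the liver regulator of glucokinase, was 186 ± 33.3 CPM in liver and under 1 CPM on average in both other organs (log2 differences 9.91 and 9.65), whereas *G6pc* (9.44 and -8.45) and *Fbp1* (8.56 and -8.30), which end gluconeogenesis, were high in liver and kidney and low in lung. *Pck1*, which starts it, was -7.57 for lung against kidney, and *G6pc3* was -2.25 for liver against kidney.

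The urate, lactate and partner lists complete the setting of *Slc2a9* and *Slc5a12*. Of 10 urate genes, 9 were tested: 7 were higher in liver and 0 in lung (6 and 1 under library totals), 3 in liver and 5 in kidney, and 1 in lung and 7 in kidney. *Uox*, the urate oxidase that mice retain, was 10.37 for liver against lung and 10.97 for liver against kidney, and the renal organic anion carriers *Slc22a6* and *Slc22a12* were -8.99 and -8.94 for liver against kidney and -10.28 and -9.47 for lung against kidney. *Slc17a4* and *Slc22a7* led the liver side against lung (9.92 and 8.54), and *Slc17a3* was -9.33 for lung against kidney. Of 9 lactate genes, 6 were tested: 3 were higher in liver and 1 in lung (1 and 2 under library totals), 1 in liver and 3 in kidney (0 and 4), and 1 in lung and 3 in kidney. The files name 3 transcripts each for *Ldha*, *Ldhb* and *Slc16a3*, whose medians were at most 1.17 TPM in each organ. The limit given for *Slc2a9* applies to their levels and to those of other genes with more than 1 transcript, among them *Khk* and *Hnf4a* (3 each). *Ldhd*, a D-lactate dehydrogenase, was 4.87, -2.36 and -7.23 in the 3 comparisons. *Emb*, a partner of monocarboxylate carriers, was -5.62 for liver against lung and -3.57 for liver against kidney, *Slc16a4* was -3.21 and -3.52 against kidney in liver and lung, and *Slc16a7* was 1.93 for liver against lung and -2.50 for lung against kidney. Of 14 partners and regulators, 9 were tested, with 4 and 4, 2 and 2, and 1 and 4 called toward the first and second organ (3 and 5, 0 and 5, and 3 and 3 under library totals), of which the 2 and 2 lie near the shares of all genes. The transcription factor *Hnf4a* (7.97 and -7.89) was high in liver and kidney and low in lung, the glucose sensor *Mlxipl* was highest in liver (6.11 against lung and 1.47 against kidney), and *Tbc1d4*, which restrains GLUT4 at rest, was -1.49 for liver against kidney.

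Strains differed more in some carriers than in others. The median standard deviation of log2 CPM over strains, among genes of at least 5 CPM, was 0.29 in kidney (10th to 90th percentile 0.18 to 0.58), 0.28 in lung (0.18 to 0.55) and 0.34 in liver (0.21 to 0.74). In kidney the value was 0.26 for *Slc2a2*, 0.31 for *Slc2a1*, 0.36 for *Slc5a1*, 0.44 for *Slc5a10* and 0.48 for *Slc5a2*, and it was 0.67 for *Slc2a5* and 0.68 for *Slc5a12*, above the 90th percentile of all genes. *Slc2a5* in kidney ran from 24.9 CPM in CC020 through a median of 108 CPM to 177 CPM in CC045, a 7.13-fold span, whereas *Slc2a2* in kidney ran from 102 to 222 CPM, a 2.17-fold span. *Slc5a2* in kidney ran from 94.1 CPM in CC044 to 433 CPM in CC024, a 4.595-fold span. In liver *Slc2a2* had a standard deviation of 0.35, close to that of all genes, and ran from 299 CPM in CC015 to 957 CPM in CC024. In lung the values were 0.36 for *Slc2a1*, 0.49 for *Slc2a3*, 0.60 for *Slc5a1* and 0.73 for *Slc2a4*, and lung *Slc2a4* ran from 2.69 CPM in CC024 to 26.6 CPM in CC059, a 9.91-fold span. *Slc5a1* averaged 3.61 CPM in lung, under the 5 CPM of the compared genes, so its value is not on equal terms with theirs.

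A strain that was high for a carrier in 1 organ was not found to be high for it in another. Correlations over the 47 strains were computed on rank-transformed log2 CPM with permutation tests of 100000 resamples, two-sided. Of 18 tests between organs, 0 were called at an adjusted p of at most 0.05, and 2 had an unadjusted p under 0.05: *Slc5a1* in liver and lung (Pearson r = -0.38, permutation p = 0.00731, adjusted p = 0.132, Spearman rho = -0.39) and *Slc2a4* in lung and kidney (r = 0.30, permutation p = 0.0408, adjusted p = 0.367). The median r of the 18 tests was 0.06. Over all genes the corresponding medians were 0.13 between liver and lung, 0.18 between liver and kidney, and 0.15 between the remaining pair of organs. Several of the 18 tests include an organ with few reads of the member. Median counts were 4 and 5 for *Slc2a3* and *Slc2a4* in liver, and 9, 5 and 9 for *Slc2a2*, *Slc5a2* and *Slc5a10* in lung. Counting error weakens a correlation at such levels, and its part was not tested.

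Within the kidney, 4 of 36 pairs of members correlated over strains, all positively, and 3 of the 4 involved *Slc5a2*. *Slc5a2* and *Slc5a12* gave r = 0.60 (permutation p = 1e-05, the smallest the resampling can give, adjusted p = 0.00036; Spearman rho = 0.59, permutation p = 3e-05) and r = 0.58 without the 2 strains farthest from the median. *Slc5a2* and *Slc2a2*, the entry and exit carriers of the early proximal tubule, gave r = 0.52 (permutation p = 0.00026, adjusted p = 0.00468; rho = 0.52, permutation p = 0.00022) and 0.53 without 2 strains. *Slc2a2* and *Slc5a12* gave r = 0.48 (permutation p = 0.00091, adjusted p = 0.0109; rho = 0.49, permutation p = 0.00078) and 0.49 without 2 strains. *Slc5a2* and *Slc5a10* gave r = 0.43 (permutation p = 0.0021, adjusted p = 0.0189; rho = 0.43, permutation p = 0.00275), but 0.39 with an adjusted p of 0.0804 without 2 strains. *Slc5a1* and *Slc5a2* gave r = -0.02. The count depends on the scaling: 36 of 36 pairs were called under library totals and 33 under TPM, but there the median r of a member with all kidney genes was 0.55 to 0.76 and 0.27 to 0.53, whereas it was at most 0.02 on the TMM scale. On that scale the levels of *Slc5a12* and *Slc5a2* also moved with the TMM factor of the kidney library (r = 0.44 and 0.27), whose part in these pairs was not tested.

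**Figure D3:**
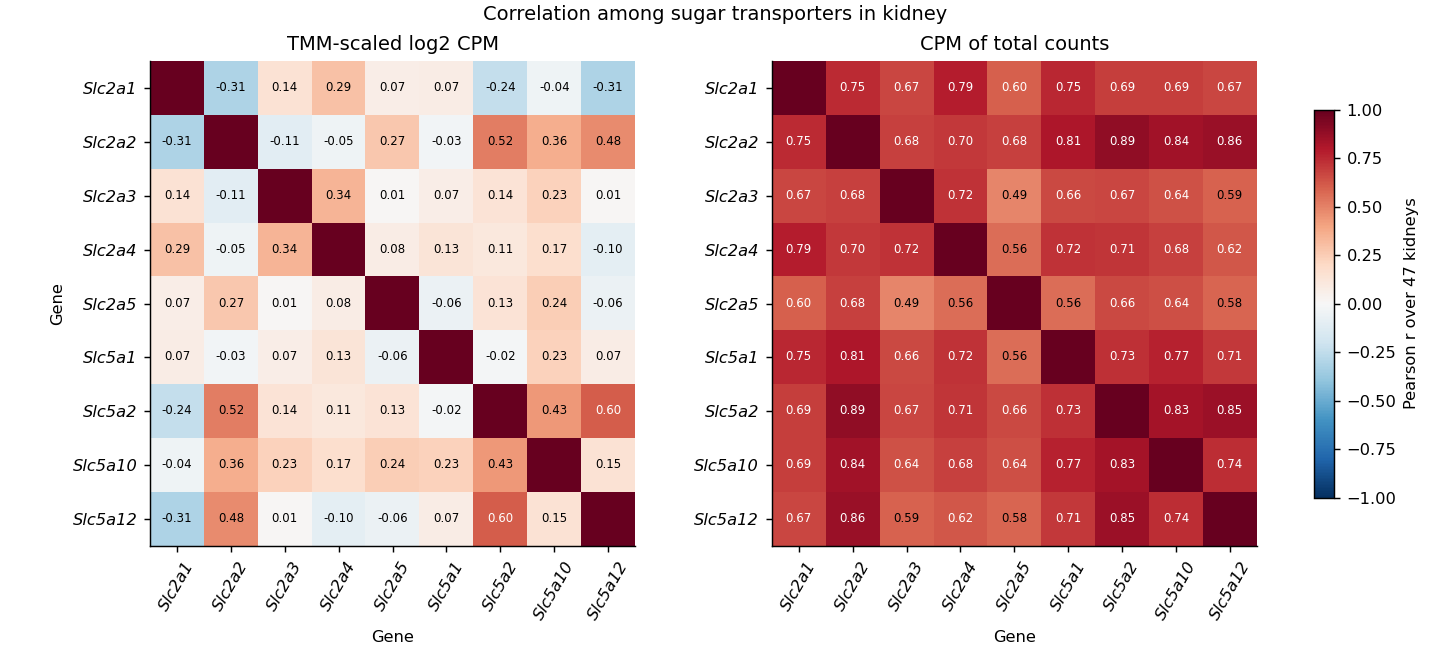
Pearson r over 47 kidneys between each pair of the 9 tested transporters, on TMM-scaled log2 CPM (left) and on CPM of library totals (right), with red for positive and blue for negative r. On the left the 4 called pairs join *Slc5a2*, *Slc5a12*, *Slc2a2* and *Slc5a10* with r from 0.43 to 0.60, and on the right all pairs lie between 0.49 and 0.89.

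**Figure D4:**
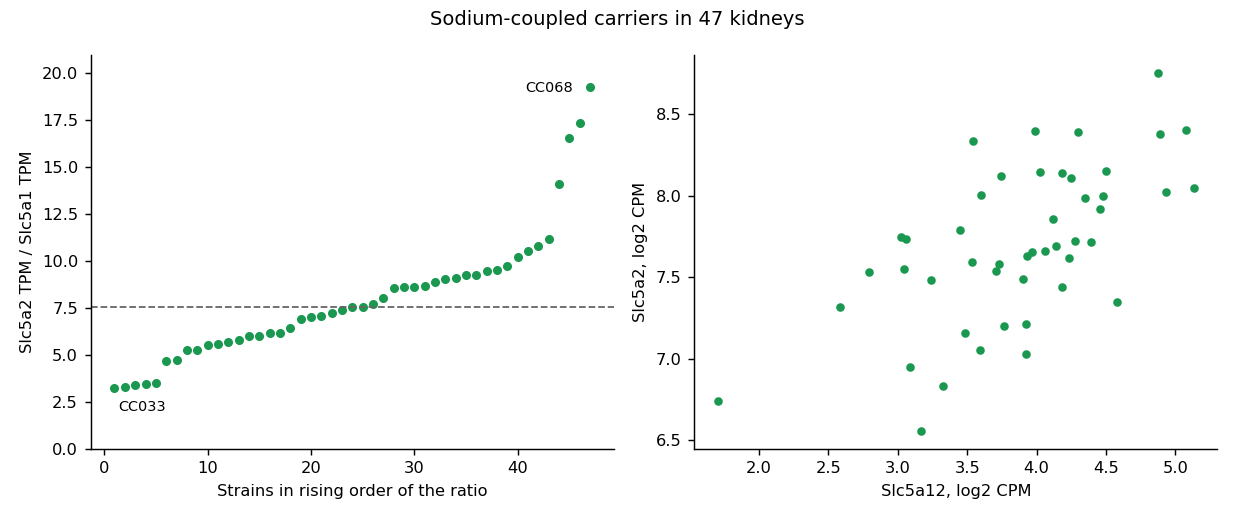
Left, the ratio of *Slc5a2* to *Slc5a1* TPM in each of the 47 kidneys in rising order, with a dashed line at the median of 7.56. Right, *Slc5a2* against *Slc5a12* in TMM-scaled log2 CPM, with each point 1 kidney (r = 0.60), and CC033, the lowest for *Slc5a12* at 3.16 CPM, at the far left.

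Of 56 tests of members against cell type lists in the 3 organs, 10 were called, all positive, and 4 remained significant without the 2 farthest strains. In kidney, *Slc2a5* correlated with the mean of 9 early proximal tubule genes (r = 0.45, permutation p = 0.00157, adjusted p = 0.0126; rho = 0.43, permutation p = 0.00275), with an adjusted p of 0.0653 without 2 strains. *Slc5a1* correlated with 6 genes of the late proximal tubule (r = 0.41, permutation p = 0.00396, adjusted p = 0.0277; rho = 0.40, permutation p = 0.00561), and with 5 genes of the thick ascending limb (r = 0.46, permutation p = 0.00125, adjusted p = 0.0117; rho = 0.37, permutation p = 0.0105). For both the adjusted p was 0.0887 without 2 strains, so that all 3 kidney calls were lost there. Among all kidney genes the 90th percentile of r was 0.25 with the early list, 0.29 with the late list and 0.28 with the thick ascending limb list. *Slc5a2* was not called with the early list (r = 0.26, permutation p = 0.0796, adjusted p = 0.262; rho = 0.21, permutation p = 0.153; 0.072 without 2 strains), nor was *Slc5a12* (r = 0.12, permutation p = 0.438, adjusted p = 0.721) or *Slc2a2* (r = 0.37, permutation p = 0.0108, adjusted p = 0.0551). Whether the proportion of these cells differed between the kidneys was not tested.

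In lung, *Slc2a4* followed muscle genes. It correlated with the mean of 6 cardiac muscle genes (r = 0.73, permutation p = 1e-05, the smallest possible, adjusted p = 0.00028; rho = 0.70, permutation p = 1e-05; 0.66 without 2 strains) and with that of 7 skeletal muscle genes (r = 0.70, permutation p = 1e-05, adjusted p = 0.00028; rho = 0.69, permutation p = 1e-05; 0.69 without 2 strains). Among all lung genes the 90th percentile of r was 0.24 with the cardiac list and 0.23 with the skeletal list. The full lists of 10 cardiac and 7 skeletal muscle genes summed to 210 to 4392 TPM and to 8.86 to 2153 TPM in the lungs, and the full cardiac list to at most 18.9 TPM in kidney. The correlation of lung *Slc2a4* with 4 adipocyte genes (r = 0.38, permutation p = 0.0079, adjusted p = 0.0481; rho = 0.35, permutation p = 0.0178) had an adjusted p of 0.118 without 2 strains. In kidney, against a list added after the CC038 and CC059 kidneys were seen to have 845 and 691 TPM of adipocyte genes where the median was 46.7 TPM, *Slc2a4* gave r = 0.46 (permutation p = 0.0011, adjusted p = 0.0099; rho = 0.48, permutation p = 0.00077), and r = 0.35 without these 2 strains. These sums are over 7 adipocyte genes, while r was taken with the mean of 2 of them.

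In liver, *Slc2a4* correlated with the mean of 5 skeletal muscle genes over all 47 strains (r = 0.54, permutation p = 0.00011, adjusted p = 0.00205; rho = 0.56, permutation p = 0.00012; 0.56 without 2 strains). Many livers had little of these genes, and the relation was also taken on both sides of a mean of 0 on the log2 CPM scale, a split chosen after the values were seen. Among the 24 livers above it, *Slc2a4* (0.13, 1.03 and 8.25 TPM) gave r = 0.74 (permutation p = 4e-05, adjusted p = 8e-05; rho = 0.79, permutation p = 3e-05; 0.78 without 2 strains). Among the other 23 livers, *Slc2a4* (0, 0.32 and 5.91 TPM) gave r = -0.26 (permutation p = 0.229; rho = -0.27, permutation p = 0.211) and r = -0.48 without 2 strains, and 16 of these livers had at most 3 counts. As the split was chosen from these values, its p-values are a description, and the 2 sides were not tested against each other.

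**Figure D5:**
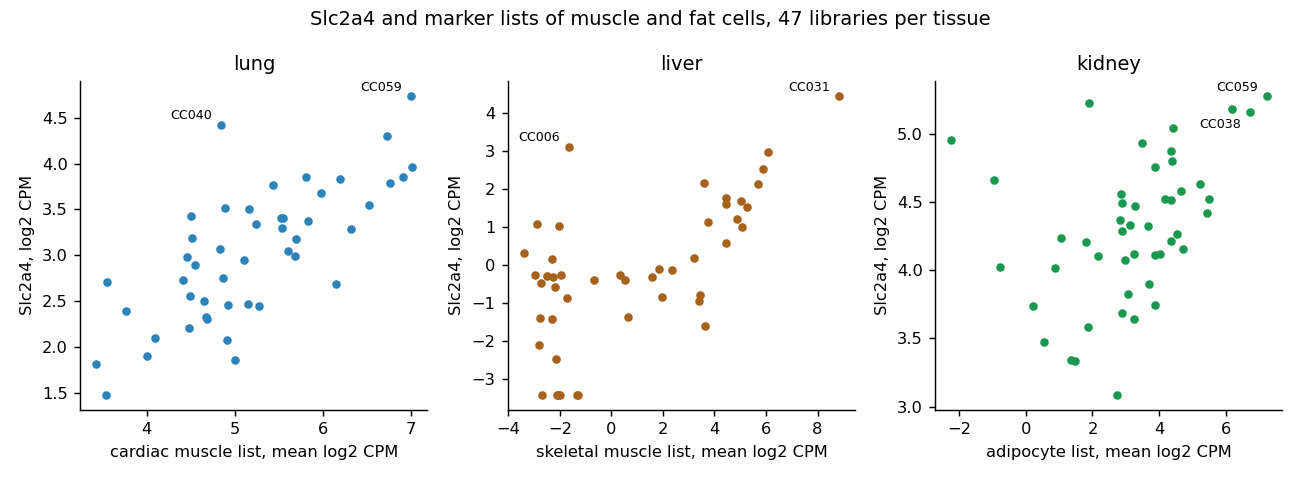
*Slc2a4* in TMM-scaled log2 CPM against the mean log2 CPM of cardiac muscle genes in lung, skeletal muscle genes in liver and 2 adipocyte genes in kidney, with each point 1 of 47 libraries and named points the libraries with extreme values. The lung points rise together (r = 0.73), the liver points rise on the right of 0 on the horizontal axis and not on its left, and the CC038 and CC059 kidneys lie at the right.

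*Slc2a3* in lung correlated with 7 myeloid and lymphoid genes (r = 0.52, permutation p = 0.00022, adjusted p = 0.00308; rho = 0.50, permutation p = 0.00057; 0.54 without 2 strains) and with 5 platelet genes (r = 0.49, permutation p = 0.00029, adjusted p = 0.00325; rho = 0.47, permutation p = 0.00088), the latter with an adjusted p of 0.0532 without 2 strains. In liver, *Slc2a1* correlated with 2 genes of the myeloid and lymphoid list (r = 0.38, permutation p = 0.00859, adjusted p = 0.0481), a relation that was not significant by Spearman rho (0.33, permutation p = 0.0227, adjusted p = 0.106) or without 2 strains. For each of these relations the contribution of the marker cells' own RNA was not tested.

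For each transporter, the genes with the most similar pattern over the 47 strains, among those of at least 5 CPM in the organ where it was followed, were found by Pearson r and are given as a description. The closest was *Sigirr* to *Slc5a2* in kidney (r = 0.81), followed by *Bphl* (0.81) and *Snrpb* (0.79). *Sigirr* lies on the same chromosome as *Slc5a2*, 12.9 Mb away. *Slc2a5* in kidney was nearest to *Clcn6* (r = 0.74), 2.08 Mb away on chromosome 4, and its next neighbours *B4galnt3* (0.55) and *Slc26a4* (0.52) were well below. *Slc2a2* in liver was nearest to *Shpk* (0.73), *Slc5a12* in kidney to *Pptc7* (0.71) and *Slc2a1* in kidney to *Nrbp2* (0.70). *Slc2a4* in kidney was nearest to *Pkm* (0.68), *Pygl* (0.66) and *Pfkl* (0.64), *Slc2a3* in lung to *Ppcdc* (0.66), *Slc5a1* in kidney to *Plscr1* (0.64) and *Slc5a10* in kidney to *Slc5a11* (0.61), another carrier of the SLC5 family.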

How the data were processed

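Total RNA from liver, lung and kidney was depleted of ribosomal RNA and sequenced as 50-base single-end reads, giving 141 libraries. The authors aligned uniquely mapping reads to strain-specific versions of the mm9 genome with RefSeq annotation, using STAR 2.5.3a, and deposited expected counts and TPM from RSEM for 24423 genes. Both expected counts and TPM were used. Deposited FPKM values were not used. Expected counts were rounded (25 values were not whole) and scaled with TMM (edgeR 4.0.16). The 12127 genes above 1 CPM in at least 30% of libraries were fitted across all 3 organs with limma-voom 3.58.1, strain as a block since same-strain organs came from the same mouse, and Benjamini-Hochberg adjustment. In simulated liver against lung data, 192 of 200 changed genes passed the FDR threshold, and 0 unchanged genes passed the FDR and fold thresholds. Correlations used 2-sided permutation tests (smallest p = 1e-05), adjusted within each family. A floor of 3 counts was about 0.288, 0.321 and 0.364 CPM in liver, lung and kidney, and covers counting error alone. All 10 members were named, with the 3 genes of each list that had the largest called difference per comparison and at least 10 CPM in the higher organ, and the 3 genes nearest to each member in the organ of its highest mean TPM among genes of at least 5 CPM. Alternatives were DESeq2 1.42.0, edgeR's quasi-likelihood test, other scalings, filters and thresholds, fits without the block or without doubted strains, and other correlation measures. Members and lists were chosen with earlier results of these data known. Some genes covered by the naming rule are not reported here.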

Additional observations from a re-analysis of the deposited data

How the results depend on the processing

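The fits without the strain block, which pairs the organs of a mouse, called 5, 8 and 9 transporters between liver and lung, liver and kidney, and lung and kidney, the same numbers as with it. Between liver and lung the number rose from 5 to 9 under library totals, to 8 under log2(TPM + 0.1) and to 8 with no fold threshold, and it was 5 or 6 otherwise. Over all alternatives it was 7 to 9 between liver and kidney and 7 to 9 between lung and kidney. The liver against lung difference of *Slc5a2* reversed under log2(TPM + 0.1) (-1.09), log2(TPM + 1) (-0.40) and library totals (-1.05), and that of *Slc2a8* under the same 3 (-0.36, -0.33 and -0.25). *Slc5a12*, at 0.05 with nearly all counts at or under the floor, reversed with DESeq2 (-1.003), DESeq2 size factors (-0.19), edgeR's quasi-likelihood test (-1.57), log2(TPM + 0.1) (-0.53), log2(TPM + 1) (-0.091), library totals (-1.25) and without the 4 strains that had a library under 3000000 counts (-0.11). The TPM and library-total fits shift the median of all genes toward lung, as given above; other causes were not tested. Kidney pairs called went from 4 to 36 under library totals and 33 under TPM, and marker list correlations from 10 to 54 and 51, and to 4 without the 2 farthest strains, for which the cause was not tested. Between organs, 0 correlations were called under all alternatives run. The 3 strains and the 4 shallow strains, the kidney fat list and the split of the livers were chosen after seeing the data.

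The limits are those of 1 mouse per strain, of single libraries with no technical repeats and of low counts: *Slc2a9* everywhere, *Slc5a12* outside kidney, *Slc5a10*, *Slc5a2*, *Slc2a4* and *Slc2a3* in liver, and *Slc2a5* in lung sit near the floor, so that their differences between strains rest on few reads. *Slc2a2*, *Slc5a2* and *Slc5a10* in lung and *Slc2a3* in kidney, with medians of 5 to 9 counts, lie not far above it.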
